A study of Ginkgo biloba with 9 samples.

Results

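The comparison of moderate with control planting density was made on leaves of 2-year-old Ginkgo biloba trees of the cultivar Fozhi, and it covered 19360 of the 41309 gene identifiers listed (46.87%). MD stands for leaves at 40 plants per square metre and CK for leaves at the control density of 20, with 3 libraries each. The series also holds 3 libraries of HD leaves at 80 plants per square metre. The HD libraries contributed to the estimate of the spread and gave levels for named and extreme genes. They also entered the means over 9 libraries that set the classes of level and reads and the reference for deviations along length. All trees grew at a nursery for leaf harvest, in fertile, well-drained soil with sufficient light, per the labels. The labels leave unsaid whether the 3 libraries of each group are separate trees, pools of trees or repeats of one extract. The p-values below therefore describe the spread of these libraries, and part or all of it may be technical. The labels separate the plants by density alone, so the density and the plot or plant lot that carried it cannot be told apart.

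Ginkgo is a seed plant whose leaves are harvested for extracts rich in flavonol glycosides and in terpene trilactones, the ginkgolides and bilobalide. Crowded plants shade each other, and leaves in seed plants read crowding largely through phytochromes, photoreceptors that sense the ratio of red to far-red light under a canopy. Root competition for water and nutrients is the other main route by which neighbours act on each other. The question set by the title of the series is how planting density affects leaf yield and the active compounds, and the MD and CK libraries give the transcript side of its first step. The deposited table does not pair its identifiers with gene names, so the gene lists drawn up for flavonoid, terpenoid, photosynthesis, shade and other pathways were not matched, and the leaf identity of the samples was not checked against markers. The products of the 4 identifiers named below are not stated in the files.

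Genes entered the comparison with at least 1 FPKM in at least 3 of the 6 MD and CK libraries. FPKM are fragments per kilobase of gene length and scaled to the fragments of a library, so levels can be set side by side between genes. At the edge of this rule, 608 genes reached 1 FPKM in exactly 3 libraries, and their median level was 1.075 FPKM in MD and 0.954 FPKM in CK. Just outside, 452 genes reached it in 2 libraries, with medians of 0.884 FPKM in MD and 0.831 FPKM in CK. Of the 608 genes, 213 passed through the 3 MD libraries alone and 143 through the 3 CK libraries alone, and such genes had to differ. They are counted among all calls below, with 196 called higher and 122 called lower in MD, and nothing is read from these 2 counts. Counts by size of change, level, reads and length include them too, so a lean among low genes can hold a part that the rule fixed. Most members lay well inside the rule, since 17756 of them (91.7%) reached 1 FPKM in all 6 libraries.

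Read numbers could be worked back from the deposited FPKM, as described with the processing, and they summed to between 14698121 and 20199084 per library in MD and between 19194030 and 22436182 in CK. The MD libraries thus held 0.829 times as many reads as the CK libraries on average. Libraries of one density lay close to each other and the densities lay apart. The median gene differed by 0.106 to 0.112 log2 units between 2 MD libraries and by 0.103 to 0.111 between 2 CK libraries, against 0.215 to 0.230 for the 9 pairs of an MD with a CK library. Differences of at least 2-fold were seen in 4.14% to 4.38% of genes between an MD and a CK library, in 0.449% to 0.501% between MD libraries and in 0.362% to 0.393% between CK libraries. The spread within the groups was alike. The median coefficient of variation was 7.54% in MD and 7.37% in CK, and it was larger in MD in 50.3% of genes.

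By limma on log2(FPKM + 1), 7276 of 19360 genes differed between MD and CK at a Benjamini-Hochberg adjusted p under 0.05, which is 37.6% of the genes tested. MD was higher in 3571 of them (18.4%) and lower in 3705 (19.1%). The 3 MD values lay entirely above or entirely below the 3 CK values in 9513 genes (49.1%), of which 4661 were above (24.1%) and 4852 below (25.1%). Of the called genes, 97.8% had such separate groups. Another 2400 genes had separate groups and were not called. The near balance of higher and lower calls depends on how libraries are scaled, since 55.9% of called genes were higher in MD when each library was scaled to its recovered reads, against 49.1% as deposited. No gene was called in opposite directions in these settings.

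Differences were mostly small. The median log2 fold change was 0.43 among genes called higher in MD and -0.37 among those called lower, and the middle 50% of called genes lay between 0.27 and 0.62 in absolute size. At least 1.2-fold changes made up 76.7% of all calls, with 2848 genes higher (14.7% of those tested) and 2733 lower (14.1%). Beyond this size the higher genes outnumbered the lower ones, with genes that passed the rule through MD or CK alone left in. At least 1.5-fold, 1169 genes were higher (6.04%) and 865 lower (4.47%). At least 2-fold, 403 were higher (2.08%) and 229 lower (1.18%), and at least 4-fold, 51 were higher (0.263%) and 34 lower (0.176%). Of the genes called past 2-fold, 262 of the 403 and 138 of the 229 had a mean below 10 FPKM over the 9 libraries. With a filter of 5 FPKM in 3 libraries, the counts at 2-fold were 256 higher and 154 lower. Fold sizes here use log2(FPKM + 1), and the added 1 makes the change of low genes look smaller. With a pseudocount of 0.1 in place of 1, the counts at 2-fold were 653 higher and 396 lower. Only 4 genes past 2-fold were not called, and past 4-fold there were 0 such genes by limma. For 4130 of the 12084 genes that were not called, the estimate ± 1.96 standard errors stayed within a 1.2-fold change in either direction. For these, a larger change between the sampled libraries lies outside this interval. The 1.96 is the normal value, and the t distribution that limma uses would give wider intervals, so 4130 is an upper count. The fold is again on log2(FPKM + 1), so for low genes it does not bound the change in FPKM. For the other genes not called, the data do not exclude a change above 1.2-fold.

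**Figure D1:**
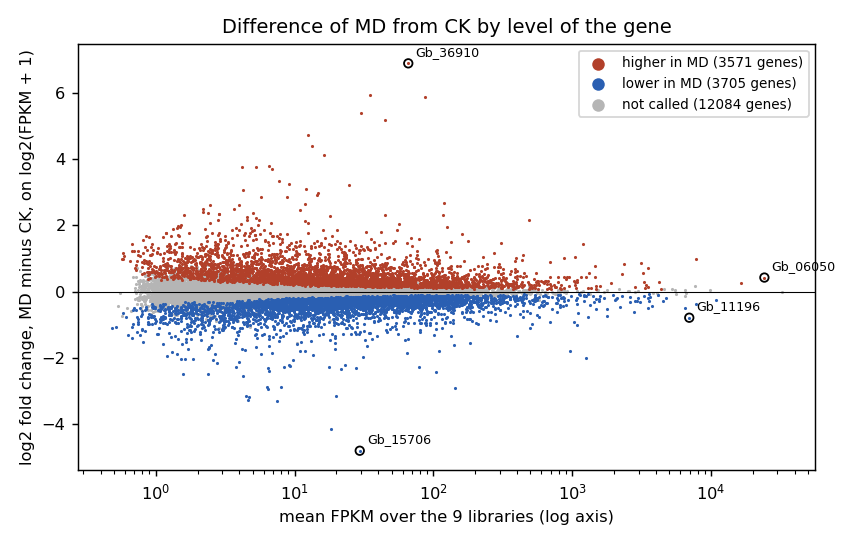
Log2 fold change of MD minus CK on log2(FPKM + 1) for each of the 19360 genes, against its mean FPKM over the 9 libraries on a log axis; 3571 genes called higher in MD are red, 3705 called lower are blue and the others are grey. The band of genes not called narrows towards high levels, and the 4 circled genes are those named in the text.

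The gene with the largest log2 rise was Gb_36910, with a recovered length of 549 nt. It stood at 177, 168 and 184 FPKM in the 3 MD libraries, against 0.0976, 0.50 and 0.997 FPKM in the 3 CK libraries. In reads these were 1426, 1864 and 1679 in MD, against 1, 6 and 11 in CK. All 3 MD libraries were high and all 3 CK libraries were close to the bottom of what the depth can show. The log2 fold change was 6.90 (SE 0.187, limma adjusted p = 1.21e-09). Without the pseudocount, the read ratio of MD to CK was 325, with an exact 95% interval of 205 to 548 that covers counting error only. In rank of level among the tested genes, Gb_36910 stood at 843 in MD and at 19252 in CK. The HD libraries lay between, at 16.5, 22.2 and 23.3 FPKM.

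Gb_15706 showed the largest log2 fall. It was listed at 0, 0.240 and 0 FPKM in the MD libraries, against 25.4, 31.4 and 31.2 FPKM in the CK libraries. The MD value of 0.240 FPKM rests on 3 reads, and the CK libraries held 293, 424 and 388 reads. The gene was thus absent or nearly so in every MD library and plainly present in every CK library. The log2 fold change was -4.81 (SE 0.109, limma adjusted p = 2.55e-10), and the read ratio of MD to CK was 0.00319 (exact 95% interval 0.000658 to 0.00936, counting error only). A library with 0 reads still allows up to 3. Its HD levels of 61.5, 59.9 and 55.3 FPKM lay above all CK levels.

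On the linear scale the leading genes were others, and both were among the most abundant transcripts of the leaf. Gb_06050 gained the most FPKM. It had 27757, 27667.5 and 28206 FPKM in the MD libraries, against 20427, 20887 and 21141 FPKM in the CK libraries. The lowest MD value exceeded the highest CK value by many times the spread within either group. The mean was 33.9% higher in MD, a gain of 7058.5 FPKM, with a log2 fold change of 0.42 (SE 0.0324, limma adjusted p = 2.98e-06). The gene ranked 2 in both groups, so quantile normalization, which gives every library the same set of values, sets this difference to 0 by construction. In HD it stood at 23299.8, 23063.4 and 25366 FPKM, between the other groups.

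Gb_11196 lost the most FPKM. It had 5958, 5872 and 5817 FPKM in the MD libraries, against 10488, 10356.5 and 9734 FPKM in the CK libraries. Every MD library was well below every CK library. The mean in MD was 0.577 times that in CK, and the log2 fold change was -0.79 (SE 0.0287, limma adjusted p = 1.02e-08). Its rank of level was 12 in MD and 6 in CK. At HD the gene was lower still, at 4741, 4775 and 4912 FPKM. Gb_06050 and Gb_11196 have recovered lengths of 534 and 465 nt, and the lowest library of each held 203518 and 36905 reads, so counting error is a minor part of their spread.

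**Figure D2:**
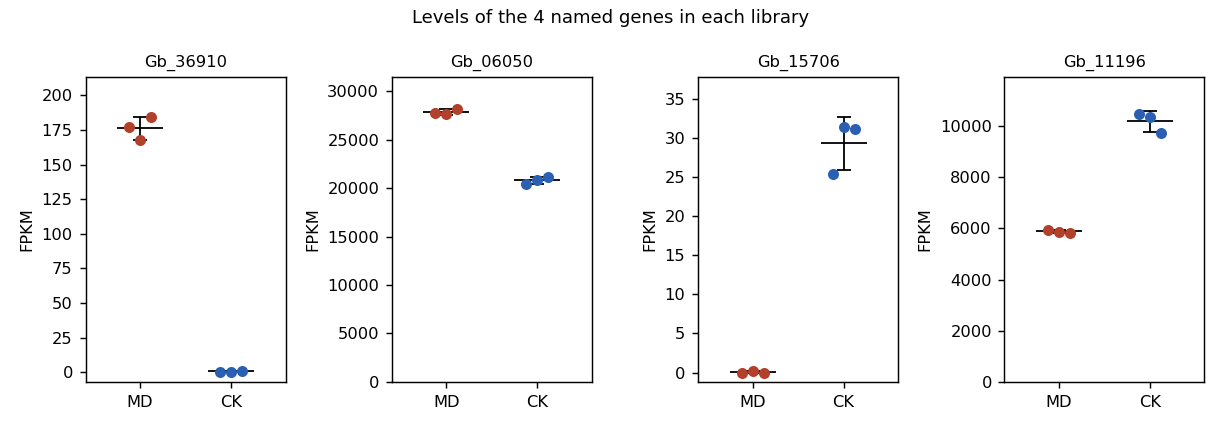
FPKM of Gb_36910, Gb_06050, Gb_15706 and Gb_11196 in the 3 MD libraries (red) and 3 CK libraries (blue), with the mean and SD of each group as black bars; each panel has its own linear axis. Gb_36910 and Gb_06050 are higher in every MD library than in any CK library, Gb_15706 and Gb_11196 are lower, and Gb_15706 is at or near 0 in MD.

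Behind Gb_36910 and Gb_15706 the changes declined quickly. The 10 genes with the largest rises had log2 fold changes of 6.90 to 3.75, and their median level was 35.1 FPKM in MD, against 0.0425 FPKM in CK. In 5 of these 10 all CK libraries were listed at 0. Among the 50 largest rises the last was 2.02, and among 100 it was 1.65. The 10 largest falls ran from -4.81 to -2.90, with median levels of 0.0526 FPKM in MD and 16.4 FPKM in CK, and 3 of them were listed at 0 in all MD libraries. The 50th fall was at -1.74 and the 100th at -1.31. On log2(FPKM + 1), falls were thus smaller than rises at each of these places, and nothing is read from this. The added 1 shrinks the change of low genes. Without it, the read ratio was 325 for MD over CK in Gb_36910 and 313 for CK over MD in Gb_15706. The highest CK mean among the 10 rises was 0.826 FPKM, so such genes passed the rule mainly through MD libraries. A mean below 10 FPKM over the 9 libraries was found in 2 of the 10, 28 of the 50 and 69 of the 100 largest rises, and in 6, 32 and 63 of the largest falls, against 9098 of the 19360 genes tested. The median level in HD was 18.55 FPKM for the 10 rises and 8.97 FPKM for the 10 falls, in both cases between the medians of MD and CK. These genes were picked by the MD and CK values, so the medians are a description only.

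Over all 41309 identifiers, 16 genes had at least 10 reads in each MD library and 0 reads in every CK library. They held 39 to 1860 reads over the 3 MD libraries, with a median of 109.5, and 0.660 to 41.4 FPKM. The reverse, 0 reads in MD and at least 10 in each CK library, was seen in 13 genes with 43 to 447 reads over the 3 CK libraries and 0.759 to 17.0 FPKM. Of the 16 genes, 12 entered the comparison and all 12 were called higher. Of the 13 genes, 10 entered and all 10 were called lower. The pattern itself fixes this direction. In the HD libraries, 7 of the 16 genes and 9 of the 13 had at least 10 reads in each library, while 2 and 1 were at 0 throughout. For genes at 0 in several libraries the recovered read numbers are the smallest that fit the values.

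Summed over genes on the deposited scale, the gains and losses amounted to a small part of the transcript pool. These sums were not recomputed under other scalings. The 9660 genes with a higher mean in MD gained 91218.5 FPKM in all, which is 8.36% of the summed level of the 19360 genes in CK. The 9700 genes with a lower mean lost 100631 FPKM (9.22%). Called genes made up 88.3% of the gain and 88.1% of the loss. Between single libraries, the gain from a CK to an MD library was 90511 to 103340 FPKM and the loss 99571 to 114580 FPKM, whereas 2 MD libraries differed by 20287 to 31479 FPKM in one direction and 2 CK libraries by 26336 to 46970 FPKM. The movement between densities was therefore larger than that between any pair of libraries within one.

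The gain was more concentrated than the loss. Gb_06050 alone gave 7.74% of the gain, and the 10 leading genes together gave 28.0%. On the other side Gb_11196 gave 4.28% of the loss and its 10 leading genes 17.9%. It took 98 genes to reach 50% of the gain and 138 genes to reach 50% of the loss. All 10 leading genes in either direction were called. The 10 with the largest gains rose by 1.2-fold to 2.7-fold, each by 913 FPKM or more. Those with the largest losses fell to between 0.231 and 0.839 times their level in CK, each by 954 FPKM or more.

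**Figure D3:**
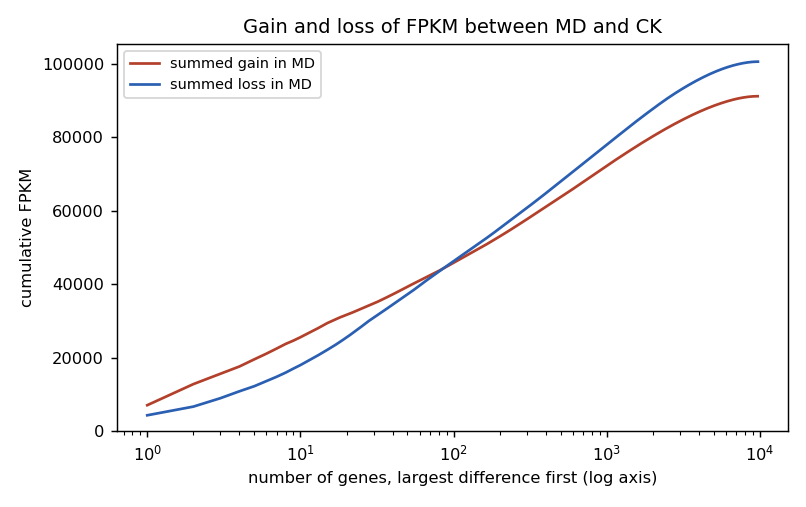
Cumulative FPKM gained (red) and lost (blue) in MD relative to CK, with genes ordered from the largest difference of group means on a log axis. The gain curve starts higher, reaching 28.0% of its total with 10 genes against 17.9% for the loss, and the curves end at 91218.5 and 100631 FPKM.

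Despite these shifts the top of the expression order was largely shared. Of the 100 most abundant genes in MD and the 100 in CK, 90 were the same, and 8 of 10 were the same at the top. The single most abundant gene was the same in both. The 10 leading genes of each library held 13.7% of its summed FPKM in every MD library, against 13.2%, 13.2% and 12.9% in the CK libraries. For the 100 leading genes the shares were 35.8%, 35.8% and 35.6% in MD and 35.8%, 35.8% and 35.0% in CK.

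The share of genes called rose with the level of the gene, as the error fell. In the 9098 genes with a mean below 10 FPKM over the 9 libraries, 26.1% were called, with 1329 higher and 1046 lower in MD. For 10 to 100 FPKM the share was 44.1%, with 1731 higher and 2061 lower, and for 100 to 1000 FPKM it was 66.0%, with 477 higher and 545 lower. In the 113 genes at 1000 FPKM or more it was 77.0%, with 34 higher and 53 lower. The lean towards higher calls below 10 FPKM was turned by quantile normalization (1165 higher, 1241 lower). Genes that passed the rule through MD or CK alone were not taken out of this class. Over all levels, 196 of them were called higher and 122 lower. The lean towards lower calls was turned by total-read scaling for 10 to 100 FPKM (2030 higher, 1762 lower) and for 100 to 1000 FPKM (545 higher, 479 lower), and for 100 to 1000 FPKM also by quantile normalization (513 higher, 493 lower). At 1000 FPKM or more, more genes were lower in MD under every scaling tried, narrowly so under total-read scaling (40 higher, 44 lower) and quantile normalization (36 higher, 40 lower).

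The size of called changes went with the error, and the cause was not tested. In such a test, a gene with a larger error needs a larger change to be called. Called genes below 10 FPKM had a median log2 fold change of 0.61 when higher and -0.56 when lower, against 0.28 and -0.27 at 1000 FPKM or more. Median standard errors were 0.134 and 0.0281 in these classes. The replicates of the most abundant genes were closest together, with a median coefficient of variation of 1.6% in MD and 2.6% in CK at 1000 FPKM or more, against 13.0% and 12.5% below 10 FPKM.

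Summed levels of the classes moved little. Genes below 10 FPKM summed to 40096 ± 59.4 FPKM in MD and 39210 ± 54.1 FPKM in CK (SD, n = 3 each; exact permutation test, two-sided p = 0.1). The sum in MD was 2.26% higher, and quantile normalization turned this to -0.761%. Genes of 10 to 100 FPKM summed to 274041 ± 525 FPKM in MD and 278112 ± 171 FPKM in CK, a change of -1.46% (exact p = 0.1). For 100 to 1000 FPKM the sums were 368576 ± 706 FPKM in MD and 373663 ± 893 FPKM in CK, a change of -1.36% (exact p = 0.1). In these 3 classes all MD libraries lay on one side of all CK libraries as deposited, and 0.1 is the smallest p that 3 against 3 libraries allow. With libraries scaled to equal summed FPKM (TPM), the change was -0.62% for 10 to 100 FPKM and -0.515% for 100 to 1000 FPKM. In the latter class the groups were then no longer fully apart (exact permutation test, p = 0.2). Total-read scaling turned the change to 0.994% for 10 to 100 FPKM and 1.1% for 100 to 1000 FPKM, and quantile normalization gave 0.344% for 100 to 1000 FPKM. At 1000 FPKM or more the sums were 398880 ± 1340 FPKM in MD and 400021 ± 7780 FPKM in CK, and the groups overlapped (exact p = 1.0). CK3 stood apart here at 391044 FPKM, against 404762 FPKM in CK1 and 404257 FPKM in CK2. The change was -0.285% with all libraries and -1.39% without CK3, but 0.309% without CK1 and 0.246% without CK2. It was also positive under the 4 other scalings, at 0.0363% to 2.21%, so no direction is given for this class.

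The share of genes called and the smallest called difference went with depth, and the cause was not tested. Among genes with a mean below 30 recovered reads over the 9 libraries, 25.9% were called, and the smallest called difference was 0.36 log2 units. From 300 to 1000 reads the share was 40.7% and the smallest call 0.11. At 10000 reads or more, 79.9% of 189 genes were called, and the smallest call was 0.06. The median called difference was 0.82 in the lowest and 0.28 in the highest class. The absolute difference of the median gene, called or not, was 0.32 below 30 reads, where the median standard error was 0.206. It was 0.164 from 300 to 1000 reads and 0.224 at 10000 reads or more, where the standard errors were 0.0735 and 0.0281. Direction also shifted with depth. Below 300 reads, 1713 of 10512 genes were called higher and 1262 lower in MD, with genes that passed the rule through MD or CK alone left in. At 1000 reads or more, 776 of 3483 genes were higher and 1342 lower. Both leans kept their direction under upper-quartile, TPM, quantile and total-read scaling and with any one MD or CK library left out.

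**Figure D4:**
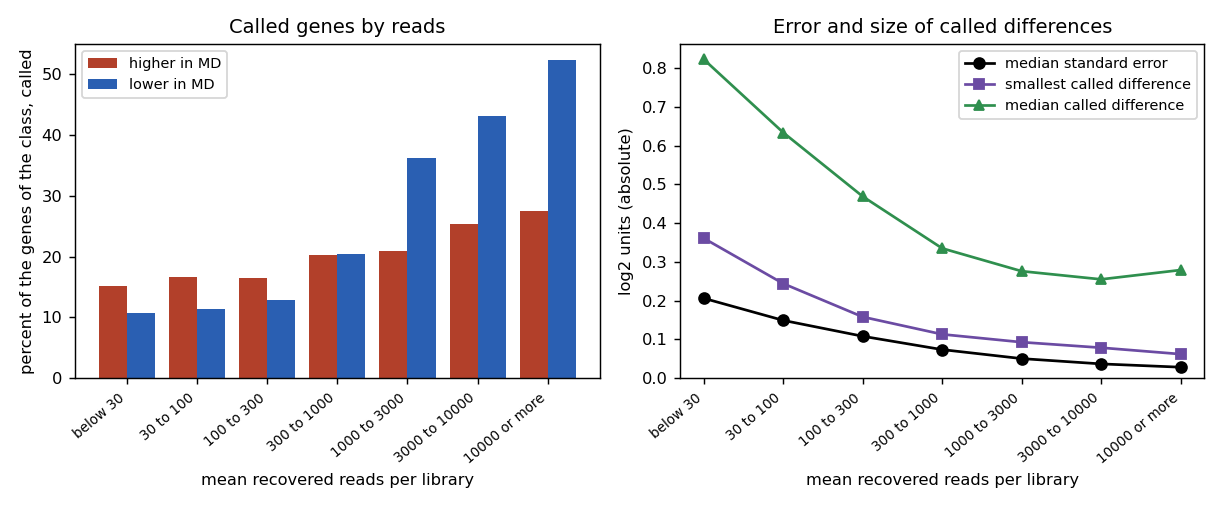
Left, percent of genes called higher (red) and lower (blue) in MD by class of mean recovered reads over the 9 libraries. Right, the median standard error, the smallest called difference and the median called difference of each class in absolute log2 units. The percent called lower climbs from 10.7% to 52.4% and the percent called higher from 15.1% to 27.5%, while the standard error drops from 0.206 to 0.0281.

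A gene's length was not part of the rule, and calls differed in direction along it. Lengths recovered from the FPKM steps were available for 19341 of the 19360 genes (99.9%), with a median of 1161 nt. Genes called higher in MD had a median length of 1002 nt, those called lower 1257 nt, and those not called 1185 nt. Below 300 nt, 22.4% of 657 genes were called higher and 11.7% lower. From 900 to 1200 nt the shares were 22.2% and 20.1%. At 2400 nt or more, 10.5% of 2723 genes were called higher and 18.2% lower. The background over all genes was 18.4% higher and 19.1% lower.

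The pattern was also seen within the classes of 10 to 100 and of 100 to 1000 FPKM, and the 113 genes of 1000 FPKM or more were not divided by length. Among genes of 10 to 100 FPKM, 442 of the 1912 below 600 nt were higher (23.1%) and 320 lower (16.7%). Of the 980 at 2400 nt or more, 111 were higher (11.3%) and 298 lower (30.4%). The shares over this class were 20.1% higher and 24.0% lower. In the class of 100 to 1000 FPKM, 218 of the 584 genes below 600 nt were higher (37.3%) and 132 lower (22.6%). Only 44 genes had 2400 nt or more, with 10 higher (22.7%) and 26 lower (59.1%). Here the class shares were 30.8% higher and 35.2% lower. Below 10 FPKM the median log2 fold change was -0.0027 for short and -0.0041 for long genes, and there the counts were 262 higher and 203 lower for short genes, and 163 and 170 for long ones. Over all levels, short genes were more often higher and long genes more often lower under all 4 other scalings and without any one MD or CK library.

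The difference of MD from CK along length was small per gene, and each MD library showed it. For each library, the median deviation from the mean of the 9 libraries was taken for genes below 600 nt, minus that for genes of 2400 nt or more. It was 0.0596, 0.0643 and 0.0754 log2 units in MD, against -0.0051, -0.0013 and 0.0096 in CK. The MD libraries lay above all CK libraries, with a mean difference of 0.0654 (exact permutation test, two-sided p = 0.1, the smallest possible). The HD libraries were at -0.0584, -0.0642 and -0.0281. Across genes, the log2 fold change and log2 length had a Pearson r of -0.0472 (19341 genes from the same 6 libraries, which are not independent replicates). With the straight line on log2 length removed from each library, 7249 genes were called, 6998 of them among the 7276 and in the same direction. The counts then became 838 higher and 762 lower below 600 nt, and 353 higher and 422 lower at 2400 nt or more.

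**Figure D5:**
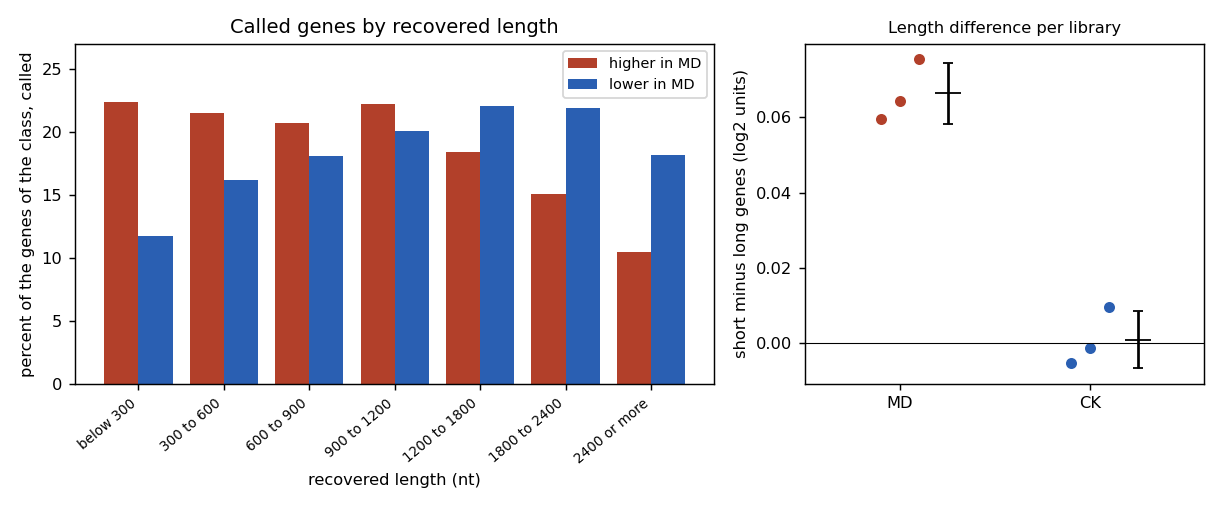
Left, percent of genes called higher (red) and lower (blue) in MD by recovered length; right, the median log2 deviation of genes below 600 nt minus that of genes of 2400 nt or more in each MD and CK library, with mean and SD. Calls lean to higher in MD among the shortest genes (22.4% against 11.7%) and to lower among the longest (10.5% against 18.2%), and the MD libraries lie at 0.0596 to 0.0754 against -0.0051 to 0.0096 in CK.

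Lengths were multiples of 3, as coding sequences are, in 16943 genes (87.6%). Of these, 37.4% were called, 3057 higher and 3272 lower in MD. Among the 2398 genes with other lengths, 39.2% were called, 513 higher and 428 lower. Both shares are near the 37.6% of all genes tested.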

How the data were processed

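Leaf RNA was sequenced on an Illumina protocol, per the labels. The table the authors deposited holds FPKM, per the file headers. CASAVA 1.8, TopHat2 and RSEM appear in the submitters' processing notes, with no role stated. The sources used here do not give the genome build. All 9 columns matched one sample title, and 0 other value columns were present. Reads were recovered because each gene's FPKM are whole multiples of a unit once libraries are scaled by relative depth, taken from 384 to 532 low genes with equal read numbers. For the 21602 genes with no 0 among the 9 values, 100.0% of genes gave whole reads (tolerance 0.001 reads plus rounding) and 99.92% whole lengths (tolerance 0.05 nt). The authors' library sizes differed from the recovered sums, and the difference went with density. They were 0.972, 0.974 and 0.9882 times the recovered sums in CK and 0.9991, 1.0023 and 1.006 times in MD. In HD they were 1.0403, 1.0374 and 1.0419 times. The deposited scale thus raises CK levels relative to MD when set against scaling to total reads, which was an alternative.

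MD minus CK was tested with limma 3.58.1 (R 4.3.3, intensity trend) on log2(FPKM + 1) in one model of all 9 libraries, without a replicate block, for genes of at least 1 FPKM in at least 3 of 6 libraries, with Benjamini-Hochberg adjustment over 19360 genes. The procedures were tested on simulated data. Single values per library had exact permutation tests (SciPy 1.17.1). Intervals of the read ratios pool reads over libraries, so they cover counting error only and leave out the spread between libraries. No label names molecular identifiers that would mark PCR copies, so such copies could not be taken out of the reads. Identifiers were named by rule: with separate groups and a call, the largest log2 rise and fall and the largest FPKM gain and loss. The members, lists and rules were chosen with earlier results of these data known. Classes of reads and length, total-read scaling, limma-voom and the length correction were chosen after seeing the data. Other alternatives were the pseudocount, the filter, upper-quartile, TPM and quantile scaling, the libraries in the fit, the variance prior, the threshold, the block and single libraries left out.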

Additional observations from a re-analysis of the deposited data

How the results depend on the processing

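The direction and call of the 4 named genes were kept in 83 of 84 recomputed values. The exception is Gb_06050 under quantile normalization, where ranks fix it at 0. These genes were picked as extremes among called genes of the same libraries, so this was largely fixed by the choice and nothing is read from it. The 7276 called genes became 4836 at an adjusted p under 0.01 (2326 higher in MD) and 2075 when a change above 1.2-fold was tested (1127 higher, 948 lower, 54.31% higher). Leaving out single libraries gave 6198 to 6390 calls, with 48.13% to 48.95% higher. The 2-fold counts became 653 higher and 396 lower with a pseudocount of 0.1, 710 and 426 with limma-voom on recovered reads, and 256 higher with a filter of 5 FPKM. The share of calls higher in MD was 47.05% with that filter, 51.06% under upper-quartile, 51.41% under TPM and 55.88% under total-read scaling. The last moved the median gene by 0.03 log2 units. No gene was called in opposite directions in any setting.

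Summed FPKM changed direction in places. At 1000 FPKM or more, MD over CK was 0.383% under upper-quartile, 0.579% under TPM, 0.0363% under quantile and 2.21% under total-read scaling, and -1.39% to 0.309% with single libraries left out (0.309% without CK1, 0.246% without CK2). Quantile normalization gave -0.761% below 10 FPKM and 0.344% for 100 to 1000 FPKM, and total-read scaling gave 0.994% for 10 to 100 and 1.1% for 100 to 1000 FPKM. The cause was not tested.

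With a replicate block 7282 genes were called. Deviations of equal numbers correlated by 0.0406, 0.0216 and 0.0556, so the numbers were not treated as pairs, although each library correlated best with its own number. Below 30 reads per library, differences under 0.36 log2 units were not called.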

Other observations

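Identifiers with consecutive numbers tended to differ in the same direction. Over 9796 pairs of tested genes whose numbers differ by 1, the log2 fold changes of MD against CK had a Pearson r of 0.151 and a Spearman rho of 0.115. Both genes of a pair were called in 1511 cases, and in 59.8% of these they moved in the same direction. When the lower-numbered gene of a pair was called with at least a 2-fold change (295 pairs), the other was called with at least a 2-fold change in the same direction in 33 pairs (11.2%).

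This fell off within a few numbers. At a gap of 2, r was 0.0406, and 52.8% of pairs with both genes called had the same direction. At a gap of 10, r was -0.0084 and the share was 47.0%, and at a gap of 1000 r was 0.015 and the share 50.6%. Of pairs whose lower-numbered gene was called with at least a 2-fold change, the other was so called in the same direction in 5.94% at a gap of 2 (17 of 286). The share was 2.12% at a gap of 3 (6 of 283) and 1.44% at 1000 (4 of 278). Among the 5353 consecutive pairs with a mean of at least 100 reads for both genes, r was 0.136. The levels of consecutive genes, as the log2 of mean FPKM plus 1, correlated with an r of 0.12, against 0.0142 at a gap of 1000. All pairs share the same 6 libraries and a gene can enter more than one pair, so these are descriptions without a p. Whether consecutive numbers mark neighbours in the genome is not given in the sources used here. How reads of near-identical gene copies were assigned is not given there either.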
